A study of Arabidopsis thaliana with 2 samples.

Results

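The SWEET genes of Arabidopsis thaliana were described in dark-grown seedlings and in seedlings given red light. Members were the genes whose current symbol is SWEET followed by a number and whose array probe set names that gene alone. The rule found 14 genes, each with 1 probe set, among 13356 genes that are named alone in the probe annotation. SWEET5 and SWEET15 carry other symbols (AtVEX1 and SAG29) and lie outside the rule, and SWEET12 is not analysed here.

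Whole seedlings of the Landsberg erecta accession were used, with no genotype other than this accession in the labels. Both groups shared 2 days of cold and dark at 4 °C, 2 h of white light and 7 days of dark growth at 23 °C. The red light group then received 1 h of red light with a transmission maximum of 630 nm at about 10 µmol per square metre and second, and the dark group stayed in darkness. Each group was 1 pool of 5 seedlings on 1 Affymetrix array, so the comparison has no replicates, no test and no error across samples. The number of arrays limits the precision, and array and group cannot be told apart. The medium held sucrose in both groups, at 1% in the growth protocol and at 2% in the design text, so seedlings of both groups were supplied with sugar from outside.

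SWEET proteins are small membrane proteins that let sugars pass down their gradient, in either direction and without coupling to protons. Those in the plasma membrane let glucose, fructose or sucrose into or out of the cell, and some release sucrose beside the phloem for export. Those in the tonoplast, the membrane around the vacuole, let sugars pass between the vacuole and the cytosol. By sequence the family falls into 4 clades, and clade does not decide the membrane: SWEET1, in the plasma membrane, and SWEET2, in the tonoplast, are both in clade I.

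The values are MAS5 signals, linear brightness values per probe set. A probe set passed if its log2 signals, averaged over both arrays, reached the 40th percentile of the probe sets (a signal of 102). Genes with any such probe set were kept as measured, and there were 7282 of them. Of the 14 SWEET genes 6 were measured: SWEET1, SWEET2, SWEET3, SWEET11, SWEET16 and SWEET17. All 12 of their signals lay above 102, so none passed through 1 array alone. Signals of different probe sets depend on the probes as well as on the transcript, and no gene's level is set against another's here.

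Red light and dark differed by over 2-fold for 2 tonoplast members, SWEET2 and SWEET17, which were higher after red light. The plasma membrane member SWEET1 was 1.66-fold higher, and SWEET11 and SWEET16 had nearly the same signal on both arrays. SWEET3 was 1.47-fold lower. Past 2-fold were 4.82% of all measured genes on the higher side and 2.44% on the lower side. The median log2 ratio was 0.48 over the 6 measured SWEET genes and 0.00 over all measured genes. A higher signal from a whole-seedling pool cannot tell more RNA per cell from more cells of the type that holds it.

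**Figure D1:**
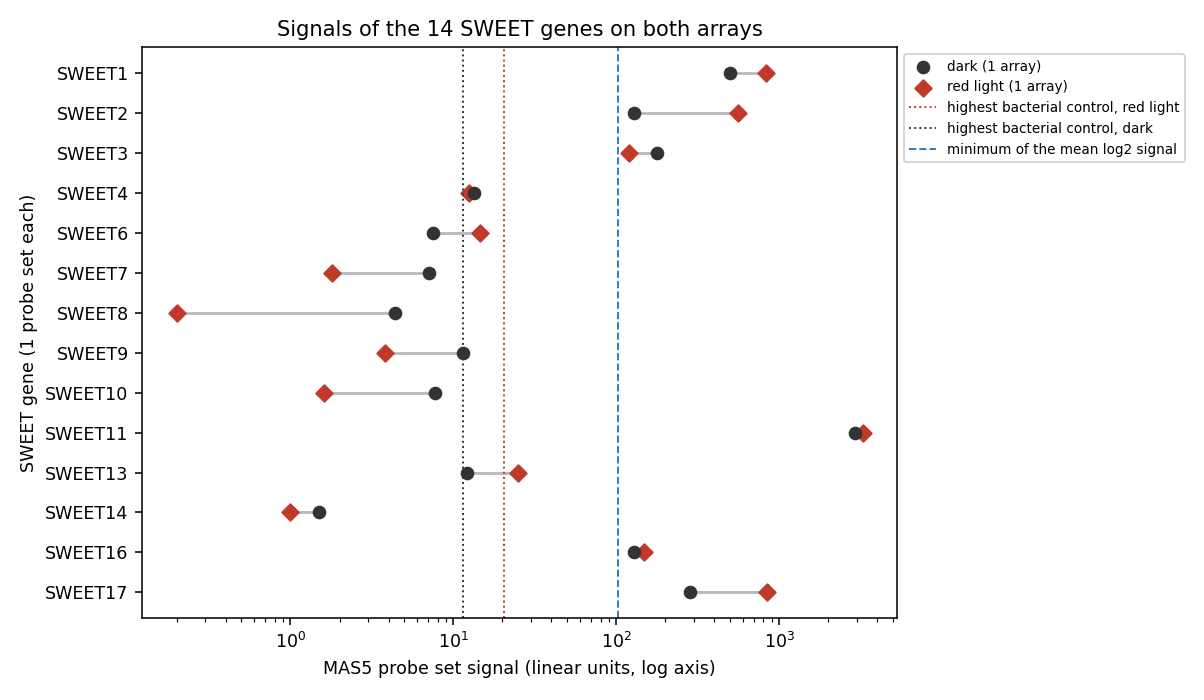
MAS5 signal (log axis) of the 14 SWEET genes on the red light array (diamonds) and the dark array (circles). Dotted lines mark the highest bacterial control probe set of each array, with the hybridization controls left out. The dashed line marks the minimum for a measured gene. SWEET1, SWEET2, SWEET3, SWEET11, SWEET16 and SWEET17 lie above the minimum of 102, and the gap between the arrays is widest among these for SWEET2 (556 and 128.7).

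SWEET2, a tonoplast protein known to retain sugar in root cells, had a signal of 556 after red light against 128.7 in the dark. It was thus 4.32-fold higher on the red light array, a log2 ratio of 2.11. Among the 7282 measured genes its ratio was 37th from the highest. When the measured genes were split by mean signal into 5 bands of equal size, the 1456 genes of its band had log2 ratios with an SD of 0.62 around a median of 0.06, and 5.84% of them were past 2-fold on the higher side.

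SWEET17, a tonoplast facilitator known for moving fructose out of and into the vacuole, had a signal of 845.1 after red light against 284.1 in the dark. It was 2.97-fold higher, a log2 ratio of 1.57, and 96th from the highest of the measured genes. In its own signal band (1456 genes) the SD of the log2 ratios was 0.59, and 5.01% of genes were past 2-fold on the higher side.

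SWEET16, the close relative of SWEET17 in clade IV and also a tonoplast protein, gave a signal of 148.9 on the red light array against 127.8 in the dark. Its log2 ratio was 0.22, and 67.7% of measured genes had a lower one. The pair of clade IV genes thus had unlike ratios, with SWEET17 past 2-fold and SWEET16 at 1.17-fold. SWEET16 lay in the dimmest band of measured genes, where the SD of the log2 ratios was 0.70.

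SWEET1, a glucose transporter of the plasma membrane, had a signal of 832.7 after red light against 501.7 in the dark, a log2 ratio of 0.73. Its ratio was 647th from the highest, so 91.1% of measured genes had a lower one. It was above 1.5-fold, as were 12.7% of all measured genes on the higher side. The arrays' hybridization controls, bacterial and phage RNA spiked into each sample, had a median log2 ratio of -0.30 over 18 probe sets, and with centring on them the log2 ratio of SWEET1 was 1.03, past 2-fold.

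SWEET11, a plasma membrane sucrose transporter of phloem loading in leaves, gave a signal of 3251 on the red light array against 2940 in the dark. Its log2 ratio was 0.14, in the brightest band of measured genes, where the SD of the log2 ratios was 0.45. SWEET3, a further clade I gene whose membrane is not assigned here, gave 120.4 after red light against 177.2 in the dark. It was the measured SWEET gene with a lower red light signal, at a log2 ratio of -0.56. The SD in its band, the dimmest, was 0.70. Such an SD is a spread over different genes and not the error of any gene's ratio.

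**Figure D2:**
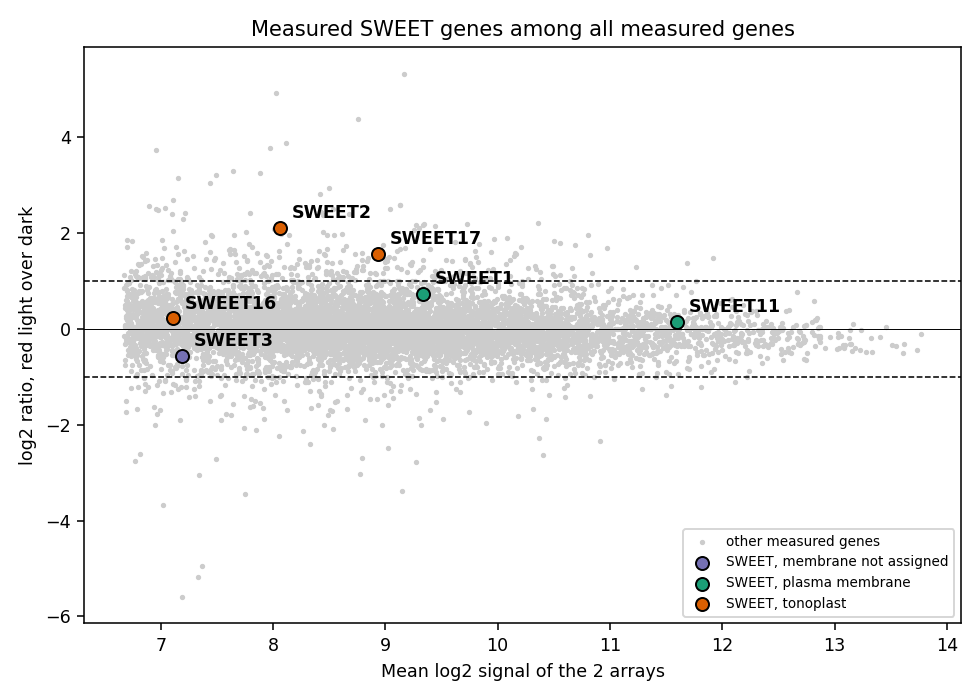
log2 ratio of red light over dark against the mean log2 signal of the 2 arrays, for 7282 measured genes in grey and the 6 measured SWEET genes in colour by membrane, with dashed lines at 2-fold. SWEET2 (2.11) and SWEET17 (1.57) lie above the upper line, and SWEET1 (0.73), SWEET11, SWEET16 and SWEET3 lie between the lines.

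Plasma membrane and tonoplast members were then set side by side. The tonoplast members were SWEET2, SWEET16 and SWEET17, with log2 ratios of 2.11, 0.22 and 1.57 and a mean of 1.30. Among the 14 genes, all 3 tonoplast members were measured, but only 2 of the 7 assigned to the plasma membrane. The measured plasma membrane members were SWEET1 and SWEET11, with 0.73 and 0.14 and a mean of 0.44. The plasma membrane members SWEET4, SWEET8, SWEET9, SWEET13 and SWEET14 were too dim to be measured and do not enter the comparison. Plasma membrane minus tonoplast was thus -0.86 on the log2 scale, with no error to set beside it. The membranes overlap, since on the deposited scale SWEET16 lies between SWEET11 and SWEET1. With loess and quantile normalization SWEET16 lay below both, at 0.11 and 0.10. The difference was -0.46 without SWEET2 and -1.40 without SWEET16, so its size rests on single genes. Within clade I, the log2 ratio of SWEET1 minus that of SWEET2 was -1.38 (0.73 against 2.11).

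The other 8 SWEET genes did not count as measured, with signals between 0.2 and 25.0 after red light and between 1.5 and 13.4 without it. The 27 probe sets for the bacterial dap, lys, phe, thr and trp transcripts, taken as a measure of background, reached 20.5 and 11.5 on these arrays. The hybridization controls are not among them. SWEET6, SWEET7, SWEET8, SWEET9, SWEET10 and SWEET14 lay at or under these values on both arrays. SWEET4 was above the dark value alone, with 13.4 in the dark and 12.4 after red light. SWEET13 was above both, with 25.0 after red light against 12.1 in the dark, and was the nearest to the minimum of the genes under it, while SWEET16 was the nearest above it. No fold is given for these 8 genes.

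These dim members include genes known from flowers and anthers: SWEET8, needed for pollen wall formation, SWEET9, the nectary sucrose exporter, and SWEET13 and SWEET14, which act in anthers. SWEET8 gave 0.2 after red light against 4.4 in the dark, and SWEET9 had 3.8 and 11.5. SWEET14 had 1.0 and 1.5. Of the 2 family members outside the rule, AtVEX1 (SWEET5, known from pollen) had 6.0 after red light against 2.7 in the dark, under background on both arrays. SAG29 (SWEET15, known from leaf senescence) had 40.2 and 68.6, above background on both but under the minimum.

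The ratios of the 6 measured members kept their sign under each of the scalings that were tried. The log2 ratio of SWEET2 ran from 1.94 with a pseudocount to 2.41 with centring on the hybridization controls. That of SWEET17 was 1.51 with quantile normalization, 1.54 with loess and 1.87 with hybridization control centring. Both genes stayed past 2-fold under every scaling and with the pseudocount. SWEET16 ran from 0.10 to 0.52, SWEET11 from 0.11 to 0.45 and SWEET3 from -0.67 to -0.26, all short of 2-fold. Centring on the hybridization controls moves the median of all measured genes to 0.30. It shifts every ratio alike, so it cannot change the order of the members. The order did change with loess and quantile normalization, where SWEET11 (0.24 and 0.19) lay above SWEET16 (0.11 and 0.10).

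**Figure D3:**
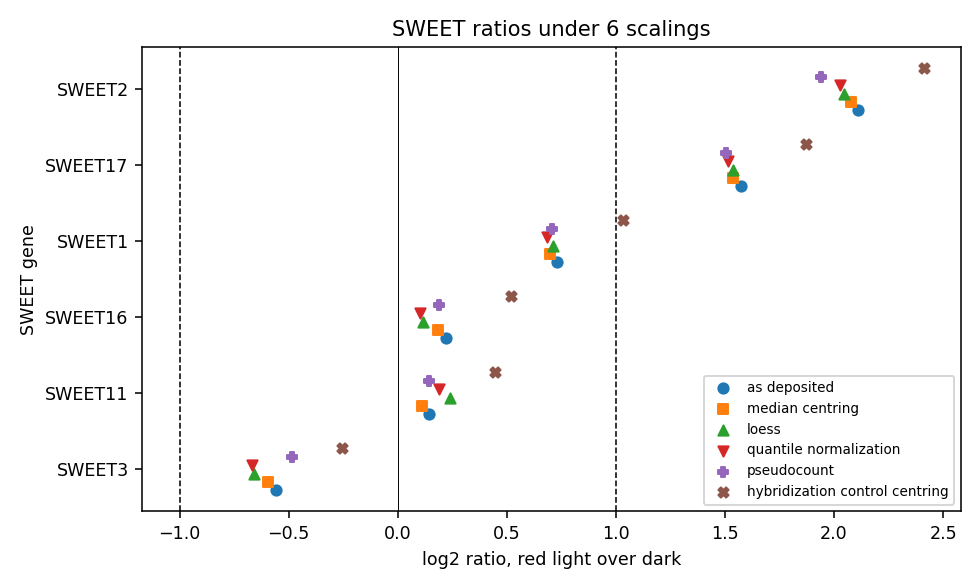
log2 ratio of red light over dark for the 6 measured SWEET genes under the deposited scale and the alternatives (median centring, loess, quantile normalization, pseudocount, centring on hybridization controls), with dashed lines at 2-fold. SWEET2 and SWEET17 stay above 2-fold throughout, and SWEET1 crosses it with hybridization control centring, at 1.03.

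Other genes that carry or use sugars were read from 7 lists with 114 loci, of which 34 have a probe set naming them alone and 18 were measured. Past 2-fold among these 18 were AT3G05400, higher after red light, and TMT1, lower. AT3G05400 passed the minimum of 102 through its red light signal alone, so its call as higher supports nothing about the lists. The median log2 ratio was 0.11, with 11 above 0 and 7 below. There were 15 and 3 with centring on the hybridization controls and 10 and 8 with quantile normalization. Over all measured genes 50.1% were above 0 as deposited, and the median was 0.30 with hybridization control centring. The shares past 2-fold over all measured genes were the 4.82% and 2.44% given above.

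Among the tonoplast and ERD6-like carriers, a list of sugar carriers, 7 of 24 loci were measured and 6 had a log2 ratio above 0 (5 with quantile normalization). The share above 0 over all measured genes was 50.1%. The median of the list was 0.52. The 6 and this median include AT3G05400, which passed the minimum through its red light signal alone. TMT1, a tonoplast monosaccharide carrier that loads sugars into the vacuole in exchange for protons, was 2.63-fold lower, at 212.4 after red light against 559.2 in the dark. Its relative TMT2 had 339.1 and 235.7, a log2 ratio of 0.52. AT3G05400, an ERD6-like carrier, was 2.14-fold higher, at 169.3 against 79.1, with the dark signal under the minimum of 102. Its log2 ratio was short of 2-fold with quantile normalization (0.96), loess (0.98) and the pseudocount (0.92). AT5G17010, the vacuolar glucose carrier VGT2, had a log2 ratio of 0.74, and SFP1 one of 0.56. TMT2 and VGT2 had log2 ratios above 0, as had SWEET2, SWEET16, SWEET17 and 50.1% of all measured genes, and TMT1 had one below 0.

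The proton-coupled carriers that bring sugars and polyols in across the plasma membrane had 2 measured members of 23 loci. AT5G61520, the hexose carrier STP3, had a log2 ratio of -0.44, and AT2G20780, PMT4 of the polyol carrier family, one of -0.64. The 9 sucrose carriers are not analysed here, as no probe set names any of them alone. In the plastid envelope, 3 of 11 carriers were measured, with log2 ratios of -0.22 for AT1G05030, 0.12 for the pentose phosphate carrier AT5G17630 and 0.28 for AT1G67300.

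The measured enzymes that make or use the sugars SWEET proteins carry all lay within 2-fold. The vacuolar invertase AT1G62660, which splits sucrose into glucose and fructose, had a log2 ratio of -0.18, at 674.5 after red light against 765.6 in the dark. In sucrose synthesis, the phosphate synthase ATSPS4F had 0.69 and the phosphatase AT2G35840 had -0.23. Of the 13 hexokinase and fructokinase loci, 3 fructokinases were measured, with 0.37 for AT5G51830, 0.11 for AT2G31390 and -0.02 for AT1G66430. Beside the tonoplast SWEETs, VHA-A2 and VHA-A3, proton pump subunits of the same membrane, had log2 ratios of -0.01 and -0.22, both above 0 with centring on the hybridization controls.

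**Figure D4:**
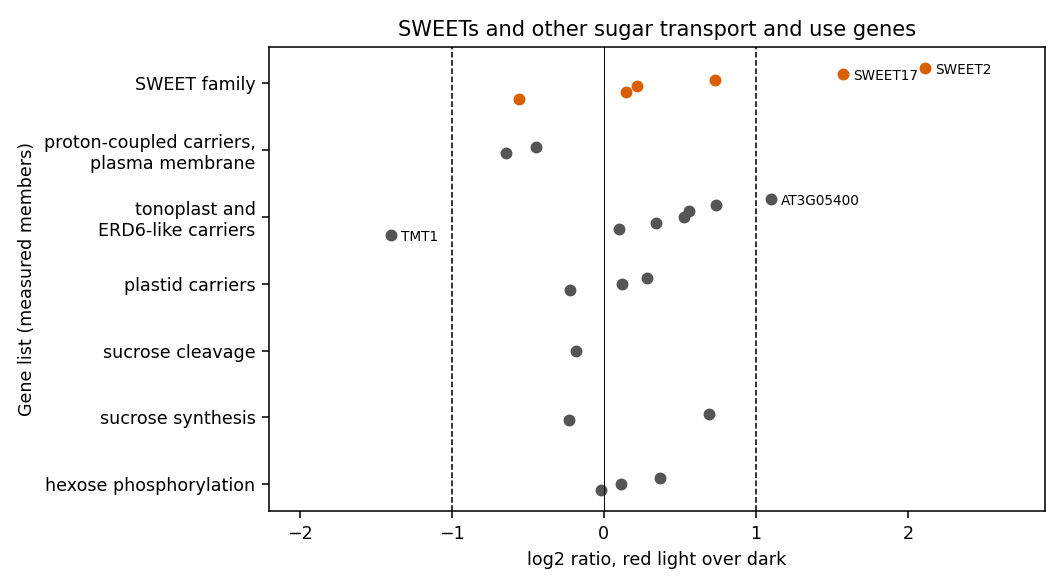
log2 ratio of red light over dark for each measured gene of the SWEET family (orange) and of 6 sugar lists with a measured member (grey), 1 point per gene, with dashed lines at 2-fold. SWEET2 (2.11), SWEET17 (1.57) and AT3G05400 (1.10) lie above 2-fold and TMT1 (-1.40) below it, and AT3G05400 passed the minimum of 102 on the red light array alone.

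The labelled tissue, whole seedlings, could be checked with few markers. Of 13 root markers 4 had a probe set naming them alone, and of these 1, PYK10, was measured. All 4 were lower after red light, as were 3635 of the 7282 measured genes. Their summed signal of 7807 against 9880 was almost all from PYK10. This abundant root glucosidase had 7781 and 9764, a log2 ratio of -0.33, or -0.03 with centring on the hybridization controls. The root hair genes EXPA7 (8.8 and 26.4), EXPA18 (13.5 and 52.3) and AT1G30870 (3.1 and 37.7) did not count as measured and were under background after red light. Of 14 seed markers 3 were listed, with a summed signal of 6015 after red light against 9013 in the dark. ICL had 855.6 and 4352, M17 had 5077 and 4548, and PAP85, which did not count as measured, had 82.8 and 112. The lower sum thus came mostly from ICL, while M17 was higher after red light. None of the shoot epidermis or phloem markers was named alone. The part of tissue makeup in the SWEET ratios was not tested.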

How the data were processed

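The authors deposited linear probe set intensity values for 2 arrays, made by MAS5 (version 5, per the submitters' processing notes). Its settings and a genome build are not given in the sources at hand. Total RNA (20 ng) was amplified before labelling, per the labels' protocols. After trimming 2% of probe sets at either end, each array had a mean intensity of 500.0, and no scaling was added. Probe sets naming several genes (503) or unlisted (8730) were left out, and symbols were updated through a TAIR10.1 gene table (13286 of 13356 genes matched). Signals of 0 were set to 0.1, the lowest positive signal, before log2. A gene's log2 values were the mean over those of its probe sets that reached the minimum.

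With 1 array per group, no test was run and a gene was called at 2-fold. In 37 genes with a pair of measured probe sets, the paired log2 ratios differed by a median of 0.27. The alternatives were median centring, loess (span 0.3), quantile normalization, a pseudocount of 21.9 (25th percentile), hybridization control centring, other filters and other thresholds. Leaving out single SWEET genes from the membrane comparison was chosen after seeing the data. Named genes were all SWEET members, the list members past 2-fold and up to 3 per list with the largest absolute ratio. The rule also took the 3 genes nearest in signal to each measured SWEET. They are not reported, because that distance sets the levels of different probe sets against each other. TMT2, SFP1 and the dim marker genes were named after their values were seen. The members and lists were chosen with earlier results of these data known. Python 3.11.15, numpy 2.4.6, pandas 2.3.3 and statsmodels 0.14.6 were used, and the steps were tested on simulated data. The planted changes were large beside the simulated noise, so that test checks the steps and not the calls from 1 array per group.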

Additional observations from a re-analysis of the deposited data

How the results depend on the processing

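No paired analysis was possible because there is only 1 array per condition. SWEET1 had a log2 ratio of 1.03 with hybridization control centring, past 2-fold, and its ratio of 0.73 is past a threshold of 1.5-fold. SWEET17, at 1.57, is short of a threshold of 3-fold. The plasma membrane minus tonoplast difference, -0.86, was -1.40 without SWEET16 and -0.46 without SWEET2. Against 1 higher and 1 lower sugar gene, there were 0 higher with loess, quantile normalization, the pseudocount, the 60th percentile filter and the threshold of 3-fold, 2 with hybridization control centring, 3 at 1.5-fold and 4 with no filter. The lower count was 4 with no filter, 2 at 1.5-fold and 0 at 3-fold. Over all measured genes, 351 were higher and 178 lower, against 705 and 91 with hybridization control centring, 1823 and 1279 with no filter, 172 and 89 with the 60th percentile filter, 925 and 652 at 1.5-fold and 93 and 55 at 3-fold. Of the called genes 66.4% were higher, against 88.6% with hybridization control centring. The cause of these shifts was not tested. Signals near the background probe sets limit what can be said of the 8 SWEET genes that were not measured.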
